A study of Mus musculus with 4 samples.

Results

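The genes described here are 44 genes of the sarcomere, the contractile unit of striated muscle, measured in the mammary fat pad (MFP) of aged and young mice. A gene was taken as a member where its symbol in the count table equalled 1 of the 44 listed symbols, and all 44 were found among the 55487 genes of the table. The list names structural proteins, but it also holds a kinase (Mylk2) and a pair of ubiquitin ligases (Trim63 and Fbxo32), which act on the sarcomere without being part of it. Of the 44 members, 43 had enough counts to be tested, and Myl2 did not.

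Total RNA depleted of ribosomal RNA was sequenced, with a kit that keeps the strand, from whole MFP pieces of C57BL/6 mice (c57b/6j in the sample labels). There were 2 aged samples, labelled as 14 months old, and 2 young samples, labelled as 8 weeks old, and the labels call the samples of each age biological replicates 1 and 2. The labels give neither sex nor any treatment, and the study used these tissues to ask how age alters the fat that melanoma cells meet. The labels do not say whether each sample came from 1 animal, so p-values measure the spread between these samples only. The tissue was lysed whole, so a gene can be low in a sample because fewer cells of a type were in the piece or because each cell held less of the RNA, and these cannot be told apart.

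In striated muscle, thin filaments of actin slide along thick filaments of myosin. The thin filaments are anchored at the Z-disc, the thick filaments at the M-band, titin spans from one to the other, and troponin on the thin filament makes contraction depend on calcium. Many of these proteins come in fast, slow and cardiac forms encoded by separate genes, and the form a myofibre expresses follows its fibre type. Of the 44 members, 9 were classed here as fast, 8 as slow, 3 as cardiac and 24 as none of these, and the last are called not classed. The MFP is a depot of white adipose tissue with mammary ducts, and skin muscle and muscle of the body wall lie next to it. How much muscle each piece held was not measured.

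The deposited counts summed to between 83936413 and 98402403 in the aged and between 68803304 and 77661766 in the young samples. Levels are given as CPM, counts relative to the library total after TMM scaling. A floor of 3 counts, under which a gene is not distinguished from one without reads, is worth 0.0337 to 0.0406 CPM and covers counting error only. Replicates of 1 age differed far beyond counting noise, with a chi-square per degree of freedom over genes of 296 between the aged and 265 between the young samples.

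The sarcomere genes were higher in the aged than in the young MFP as a group. Summed over the 44 members, the level was 36492 and 54628 CPM in the aged and 9305 and 12489 CPM in the young samples (replicates 1 and 2 in that order, as in all value pairs below). The aged samples lay above both young samples. Of the 43 members tested, 42 had a positive log2 fold change (aged over young), with a median of 2.15 over the 43. Over all 22485 genes tested, the median was -0.04 and 10558 genes had a positive value.

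No member passed edgeR's quasi-likelihood test at an adjusted p of 0.05, and neither did any of the 22485 genes tested (0%). The adjusted p of the members lay between 0.360 and 0.633, and 0.360 was also the lowest value of any gene. Before adjustment, 33 members had an edgeR p under 0.05 and a higher level in the aged MFP, against 7.24% of all genes tested. The only member with such a p and a lower level was Actc1, against 3.31% of all genes. DESeq2, the tool the study names, called 31 of the 44 members higher, Myl2 among them, and Actc1 lower, against 3.24% and 0.71% of the genes it tested. Both aged samples lay above both young samples in 39 of the 43 members tested, against 23.3% of all genes tested. In Actc1 both young samples lay above both aged ones, against 22.8% of all genes, and in Tnnt1, Tnnc1 and Myl3 the ages overlapped. An exact permutation test of 2 samples against 2 cannot give a two-sided p under 0.333.

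**Figure D1:**
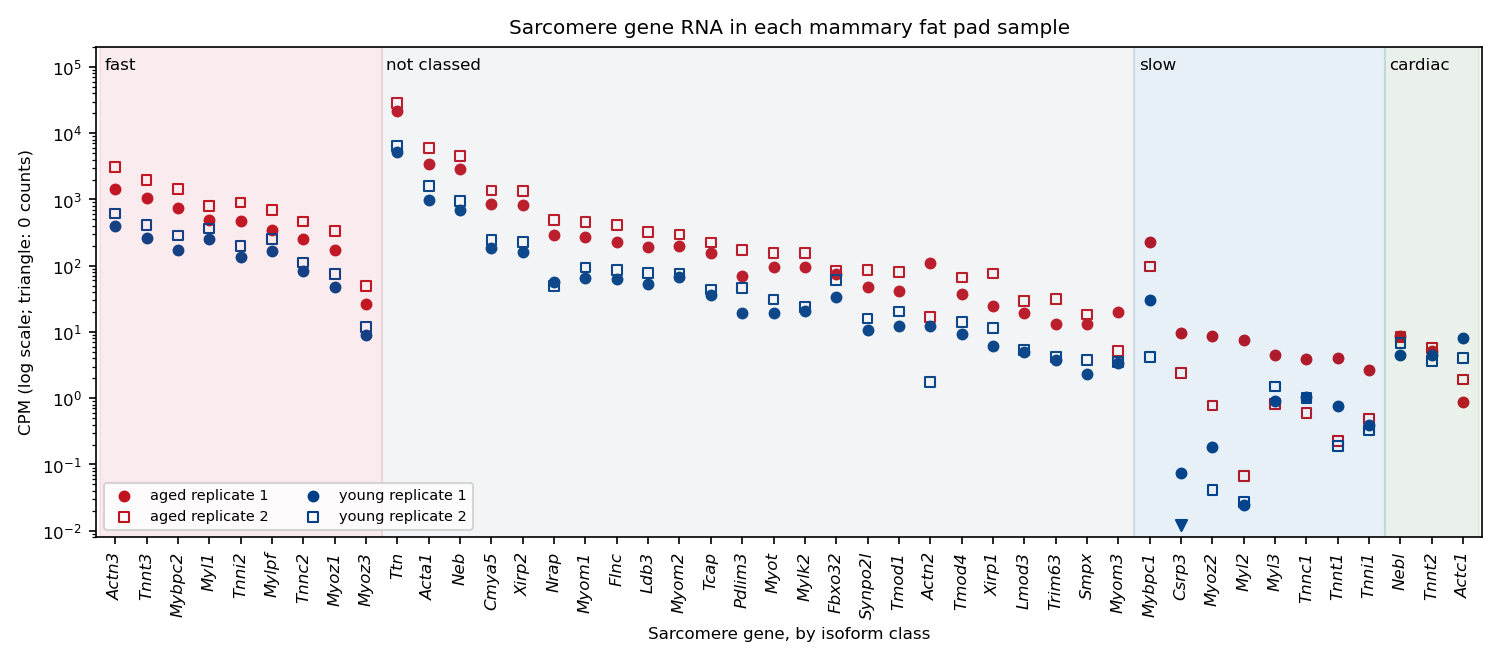
CPM (log scale) of each of the 44 sarcomere genes in the 4 MFP samples, with genes grouped by isoform class and ordered by mean level. Red marks aged and blue young samples, filled circles replicate 1 and open squares replicate 2; in the fast class all 9 genes show the same order of the 4 samples, while in the slow class aged replicate 1 is the highest sample of all 8 genes.

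Titin and the M-band come first by CPM. Ttn encodes titin, the elastic giant that holds the thick filament in place, and lies on the minus strand of chromosome 2 (76703980 to 76982547, GRCm38). Its level was 21275 and 28397 CPM in the aged and 5217 and 6479 CPM in the young samples, which are means of 24836 ± 5036 and 5848 ± 893 CPM (SD, n = 2). The ages did not overlap, and Ttn alone held most of the summed level of the set in every sample. Its log2 fold change was 2.09 (SE 0.57), with an adjusted p of 0.418 in edgeR and of 6.6e-10 in DESeq2, and the adjusted p over all alternatives ran from 6.6e-10 to 0.976. Divided by its merged exon length of 116.8 kb, Ttn had a mean level of 131 CPM per kb, well under the 1953 CPM per kb of Acta1.

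The myomesins crosslink thick filaments at the M-band. Myom1 stood at 273 and 452 CPM in the aged and at 65.4 and 94.2 CPM in the young samples. Myom2 stood at 198 and 297 CPM in the aged and 67.4 and 74.8 CPM in the young samples. Both were higher in each aged sample, against 23.3% of all genes tested. Their log2 fold changes were 2.18 and 1.80, the highest and the lowest of this class. Myom3, the third myomesin, had another order, with 19.9 and 5.19 CPM in the aged samples against 3.45 and 3.56 CPM in the young samples. Its log2 fold change was 1.84 (SE 0.70), and 0.55 without aged replicate 1.

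Of the 7 thin filament members, 6 were higher in both aged samples, against 23.3% of all genes tested. Acta1, the main actin of skeletal muscle, stood at 3472 and 5960.2 CPM in the aged and at 979 and 1588 CPM in the young samples, and its log2 fold change was 1.88 (SE 0.47, adjusted p = 0.409 in edgeR). Neb encodes nebulin, which runs along the thin filament, and stood at 2855 and 4584 CPM in the aged and 685 and 935 CPM in the young samples, and its log2 fold change was 2.20 (SE 0.40, adjusted p = 0.361). Lmod3, a leiomodin that nucleates actin filaments, had the highest value of the class, 2.22, from 19.1 and 29.2 CPM in the aged and 5.06 and 5.30 CPM in the young samples. In none of these 3 genes did the ages overlap. The tropomodulins Tmod1 and Tmod4, which cap the thin filament, had values of 1.89 and 2.16.

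Actc1 and Nebl are the cardiac genes of the thin filament. Actc1, the actin of heart muscle that developing skeletal muscle also uses, stood at 0.868 and 1.92 CPM in the aged and at 7.99 and 4.08 CPM in the young samples. These are 71 and 171 counts against 655 and 301 counts. It was lower in both aged samples, with a log2 fold change of -2.11 (SE 0.59, adjusted p = 0.421 in edgeR and 0.0172 in DESeq2, with 0.0172 to 0.976 over all alternatives). The actin genes are nearly identical in their coding sequence, so reads may have been split among Acta1, Actc1 and the smooth muscle actin Acta2, and the low Actc1 level is uncertain for this reason. Nebl, which encodes nebulette, stood at 8.56 and 8.40 CPM in the aged and 4.54 and 6.76 CPM in the young samples, and its log2 fold change was 0.59 (SE 0.29).

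All 12 Z-disc members were higher in both aged samples, against 23.3% of all genes tested. The α-actinins crosslink thin filaments at the Z-disc, Actn3 in fast fibres only and Actn2 in all fibres. Actn3 (chromosome 19, 4861216 to 4877909) stood at 1435 and 3065 CPM in the aged and at 403 and 613 CPM in the young samples, and its log2 fold change was 2.15 (SE 0.50, adjusted p = 0.404 in edgeR). Actn2 stood at 109.8 and 16.9 CPM in the aged and at 12.2 and 1.75 CPM in the young samples, and its log2 fold change was 3.19 (SE 1.38, adjusted p = 0.503), with 1.27 without aged replicate 1 and 5.18 without young replicate 1. Actn2 was thus high in replicate 1 of either age, where Actn3 was high in replicate 2.

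Myozenins bind calcineurin at the Z-disc. Myoz1 stood at 171 and 336 CPM in the aged and at 47.4 and 74.0 CPM in the young samples. Myoz3 stood at 26.1 and 49.3 CPM in the aged and at 8.99 and 11.8 CPM in the young samples, and its log2 fold change of 1.86 (SE 0.39) was the lowest of the Z-disc class. Both are the myozenins of fast fibres. The slow-fibre form Myoz2 stood at 8.73 and 0.774 CPM in the aged and at 0.183 and 0.0406 CPM in the young samples (714, 69, 15 and 3 counts), a log2 fold change of 5.38 (SE 1.58) that ran from 2.75 without aged replicate 1 to 6.81 without young replicate 1.

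Csrp3, the muscle LIM protein, had the highest log2 fold change of all members, 7.26 (SE 1.52, adjusted p = 0.385 in edgeR). It stood at 9.63 and 2.38 CPM in the aged samples (788 and 212 counts) and at 0.0732 CPM in young replicate 1 (6 counts), and it had 0 counts in young replicate 2, where up to 0.0406 CPM is possible. The fitted value of so low a gene depends on the prior count, and it was 5.92 without aged replicate 1 and 11.94 without young replicate 1, where the young MFP is left with 0 counts and the value is no bound. The other Z-disc members lay between 1.89 and 2.32. They were Ldb3 (1.98), Tcap, the titin cap (2.25), Myot, or myotilin (2.31), Flnc, the muscle filamin (2.08), Synpo2l (2.32) and the LIM protein Pdlim3 (1.89).

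Troponin has a calcium-binding (C), an inhibitory (I) and a tropomyosin-binding (T) subunit, each with a fast and a slow gene. The fast genes Tnnt3, Tnni2 and Tnnc2 were the abundant ones. Tnnt3 stood at 1039.5 and 1969.7 CPM in the aged and at 267 and 409 CPM in the young samples, and its log2 fold change was 2.16 (SE 0.45, adjusted p = 0.383 in edgeR). Tnni2 stood at 467 and 898 CPM in the aged and at 134 and 197 CPM in the young samples. Tnnc2 stood at 252 and 463 CPM in the aged and at 82.0 and 112 CPM in the young samples. In all 3 both aged samples lay above both young samples, against 23.3% of all genes tested. Replicate 2 was the higher of each age.

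The slow troponin genes were low and uneven. Tnnt1 stood at 4.06 and 0.224 CPM in the aged and at 0.768 and 0.190 CPM in the young samples, so aged replicate 2 lay below young replicate 1. Tnni1 stood at 2.64 and 0.483 CPM in the aged and at 0.390 and 0.325 CPM in the young samples, without overlap. Tnnc1 stood at 3.86 and 0.595 CPM in the aged and at 1.04 and 1.02 CPM in the young samples, so aged replicate 2 was the lowest of the 4. The log2 fold changes were 2.15 (SE 1.52), 2.12 (SE 0.92) and 1.12 (SE 0.94), in that order. Without aged replicate 1 they were -1.10 for Tnnt1, 0.42 for Tnni1 and -0.80 for Tnnc1. Tnnt2, the cardiac troponin T, stood at 5.21 and 5.72 CPM in the aged and 4.49 and 3.60 CPM in the young samples, and its log2 fold change was 0.43 (SE 0.26).

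Myosin light chains bind the neck of the myosin heads, and myosin-binding proteins C sit along the thick filament. Myl1, the essential light chain of fast fibres, stood at 483 and 788 CPM in the aged and at 253 and 365 CPM in the young samples. Its log2 fold change of 1.04 (SE 0.35, adjusted p = 0.460 in edgeR) was the lowest of the 9 fast genes. Mylpf, the regulatory light chain of fast fibres, stood at 345 and 685 CPM in the aged and at 164 and 252 CPM in the young samples, and its log2 fold change was 1.31 (SE 0.43). Mybpc2, the fast myosin-binding protein C, stood at 739 and 1440.1 CPM in the aged and at 170.2 and 286 CPM in the young samples, and its value of 2.25 (SE 0.48) was the highest of the fast genes. In these 3 genes both aged samples lay above both young samples, against 23.3% of all genes tested.

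The slow genes of the thick filament again stood apart in aged replicate 1. Mybpc1, the slow myosin-binding protein C, stood at 228 and 97.2 CPM in the aged and at 30.2 and 4.24 CPM in the young samples, and its log2 fold change was 3.24 (SE 1.10, adjusted p = 0.462 in edgeR), with 2.44 without young replicate 2 and 5.26 without young replicate 1. It was the only slow gene above 10 CPM in any sample. Myl3, the essential light chain of slow fibres and the ventricle, stood at 4.51 and 0.808 CPM in the aged and at 0.902 and 1.50 CPM in the young samples, which overlap. Its log2 fold change was 1.14 (SE 0.91) with all samples and -0.58 without aged replicate 1.

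Myl2, the regulatory light chain of slow fibres and the ventricle, had 625 counts in aged replicate 1, 6 in aged replicate 2 and 2 in each young sample. These are 7.64, 0.0673, 0.0244 and 0.0271 CPM. It did not pass the filter on low counts, and no edgeR value was computed for it. Against a floor of 3 counts in each young sample, the aged mean was at least 99.8-fold higher, almost all of it from aged replicate 1. Aged replicate 2 was at least 1.74-fold above that floor. Mylk2, the skeletal myosin light chain kinase, had a log2 fold change of 2.50.

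Costamere and junction proteins tie the Z-discs and the filament ends to the membrane. All 5 were higher in both aged samples, against 23.3% of all genes tested. Nrap, a nebulin-related protein of the myotendinous junction, had the smallest edgeR p of any member, 0.000725 before and 0.360 after adjustment. It stood at 290.0 and 489 CPM in the aged and at 56.6 and 49.6 CPM in the young samples, and its log2 fold change was 2.87 (SE 0.32). Cmya5, or myospryn, had the lowest value of the class, 2.35 (SE 0.35), from 840 and 1368 CPM in the aged and 186 and 247 CPM in the young samples. The actin-binding Xin proteins Xirp1 and Xirp2 had values of 2.51 and 2.47, and the small muscle protein Smpx of 2.36.

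Trim63 (MuRF) and Fbxo32 (atrogin) are E3 ubiquitin ligases of muscle, known as markers of atrophy. Trim63 stood at 13.3 and 31.2 CPM in the aged and at 3.80 and 4.19 CPM in the young samples, and its log2 fold change was 2.48 (SE 0.48, adjusted p = 0.370 in edgeR). Fbxo32 stood at 74.8 and 82.5 CPM in the aged and at 33.2 and 60.2 CPM in the young samples, and its log2 fold change was 0.75 (SE 0.32, adjusted p = 0.503). In both genes the aged samples lay above both young samples, against 23.3% of all genes tested.

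**Figure D2:**
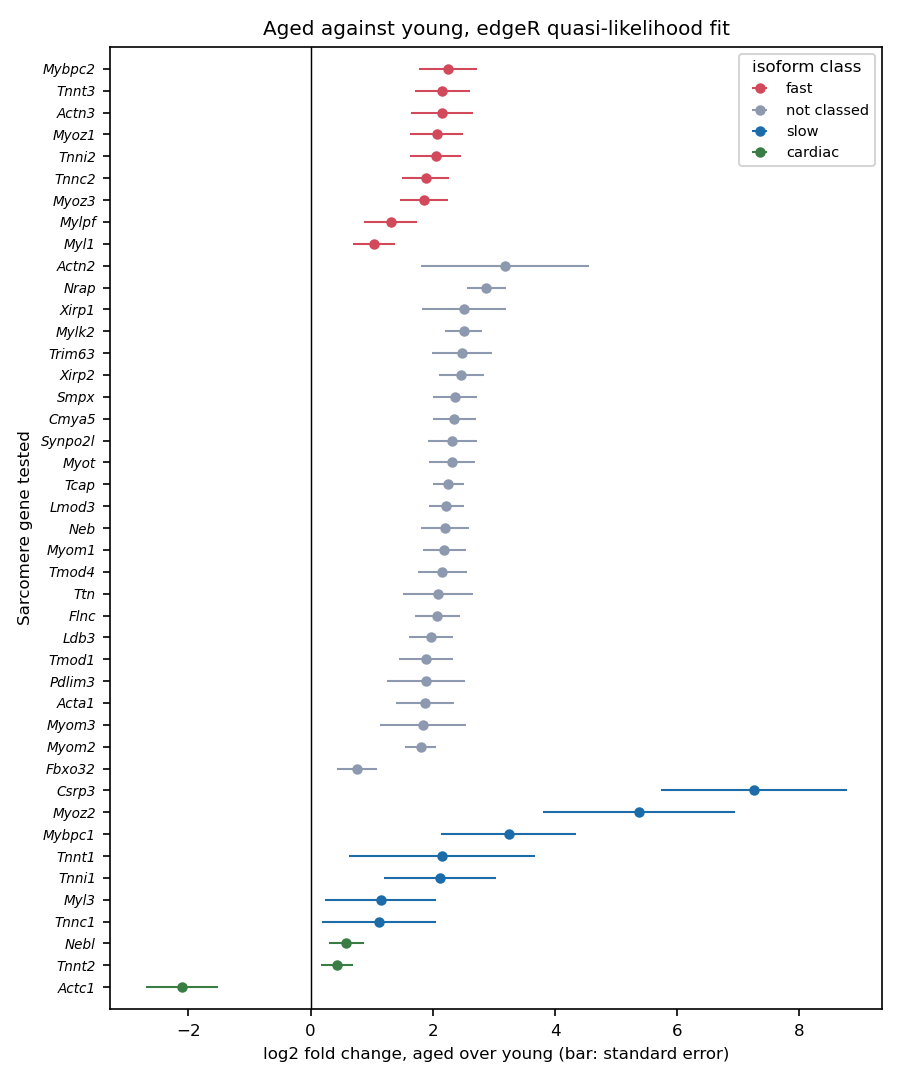
Log2 fold change (aged over young, edgeR) of the 43 sarcomere genes tested, with bars of 1 standard error and color by isoform class. The fast genes lie between 1.04 and 2.25 with short bars, the slow genes between 1.12 and 7.26 with long bars, and Actc1 at -2.11 is the only gene below 0.

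By role, the medians of the log2 fold change lay close together, from 1.61 in the ubiquitin ligases to 2.47 in the costamere and junction class. The other medians were 1.78 in the light chain and thick filament class, 1.89 in the thin filament, 1.96 in titin and the M-band, 2.05 in troponin and 2.20 in the Z-disc. By isoform class, the median was 2.05 in the 9 fast genes, 2.15 in the 7 slow genes tested, 0.43 in the 3 cardiac genes and 2.21 in the 24 genes not classed. All 9 fast genes had an edgeR p under 0.05 before adjustment and a higher level in the aged MFP. So did 3 of 7 slow and 21 of 24 not classed genes, against 7.24% of all genes tested. The slow minus fast difference in these medians was 0.11, and it moved from -2.01 without aged replicate 1 to 2.60 without young replicate 1, so it had no stable sign in these 4 samples. Exon length did not order the values, with a Spearman rho of 0.12 across the 43 genes, which share their libraries.

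Whether the members scaled together was read from the order of the 4 samples. In 30 of the 44 members the order, from high to low, was aged replicate 2, aged replicate 1, young replicate 2, young replicate 1, an order found in 8.09% of all genes tested. These were all 9 fast genes and 21 of the 24 genes not classed, and 0 of the 8 slow and 0 of the 3 cardiac genes. The order aged replicate 1, aged replicate 2, young replicate 1, young replicate 2 was found in Actn2, Tnni1, Mybpc1, Myoz2 and Csrp3, against 3.50% of all genes tested. Nebl, Myl2 and Myom3 had another order that led with aged replicate 1 (7.60% of all genes tested), where the place of Myl2 rests on 2 counts in each young sample. Tnnt2 and Nrap had one that led with aged replicate 2 (4.11%). These last counts are near the shares over all genes. Tnnt1, Tnnc1, Myl3 and Actc1 each had an order of their own.

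The differences between replicates of 1 age do not use the age contrast. They set the slow genes apart from the fast ones in the aged pair, while the ranges overlapped in the young pair. Between the aged replicates (1 minus 2), the fast genes lay between -1.09 and -0.71 on the log2 scale, with a median of -0.94. The 8 slow genes lay between 1.23 and 6.38, with a median of 2.55, and all 8 were higher in replicate 1, against 11090 of the 22485 genes tested. Between the young replicates (1 minus 2), the fast genes lay between -0.75 and -0.40, and the slow genes between -0.72 and 2.83. Of the 7 slow genes other than Myl2, 6 were higher in young replicate 1, against 11110 of the 22485 genes tested. Myl3 was the exception. Some of these 6 differed by few counts. Young replicates 1 and 2 had 85 and 75 counts of Tnnc1, 32 and 24 of Tnni1 and 6 and 0 of Csrp3. Myl2, with 2 counts in each young sample, cannot be ranked between them.

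**Figure D3:**
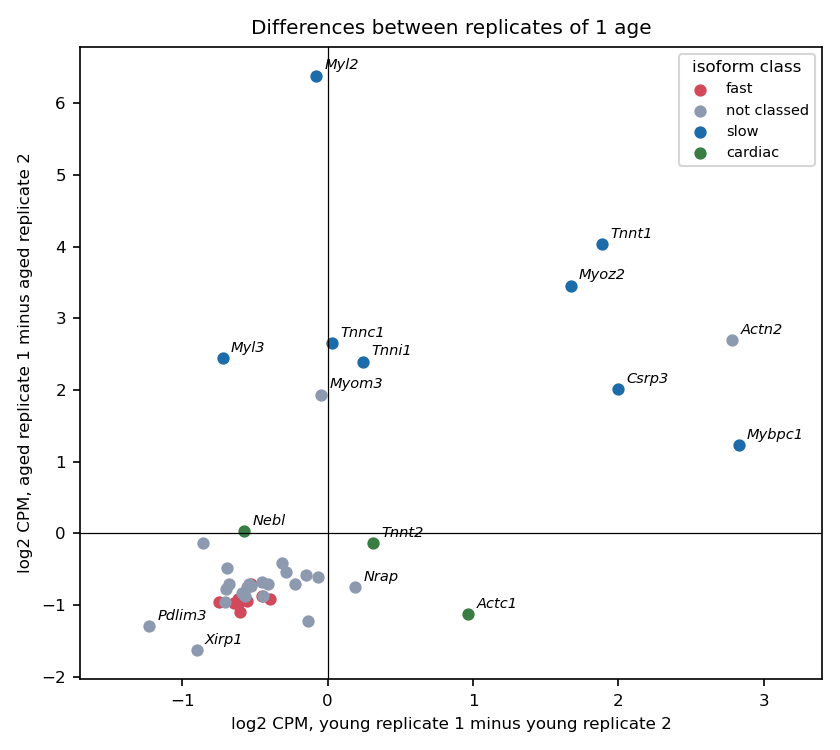
Log2 CPM of replicate 1 minus replicate 2 in the young (x axis) and in the aged (y axis) MFP, 1 point per sarcomere gene, colored by isoform class. The fast genes form 1 cluster at -0.75 to -0.40 and -1.09 to -0.71, while the slow genes lie at 1.23 to 6.38 on the y axis.

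The size of the shared scaling was set out against the median of the 9 fast genes in each sample. Relative to young replicate 1, this median was 1.54-fold in young replicate 2, 2.84-fold in aged replicate 1 and 4.80-fold in aged replicate 2. After it was subtracted, 17 of the 24 genes not classed stayed within a range of 1 on the log2 scale over the 4 samples, against 2.82% of all genes tested. Acta1 had the smallest range, 0.34, and Ttn had one of 0.83. All 9 fast genes stayed within 0.40 to 0.82, which their own median fixes in part. None of the 8 slow genes (3.15 to 7.73) and none of the 3 cardiac genes (1.38 to 4.67) stayed within 1. On this relative scale 27 of the 44 members, 7 of the 9 fast and 19 of the 24 not classed genes among them, were still higher in both aged than in both young samples, against 1.48% of all genes tested. Another 6 were lower in both aged samples, against 87.9% of all genes, namely Myl1, Mylpf, Fbxo32, Nebl, Tnnt2 and Actc1, although 5 of these 6 were higher in CPM. The median gene differs between samples. It is Mylpf in both young samples, Tnni2 in aged replicate 1 and Myl1 in aged replicate 2. On the log2 scale the median rose over young replicate 1 by 1.51 in aged replicate 1 and 2.26 in aged replicate 2. The median change of the 9 fast genes was larger, 1.80 and 2.75. A gene that changed like a typical fast gene can thus come out higher. These counts and the place of Mylpf are therefore fixed in part by the scale.

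Pairs of samples that share no library gave a further description. Across the 43 members tested, the difference aged minus young of replicates 1 and that of replicates 2 had a Pearson r of 0.69 (Spearman rho 0.53), and the crossed pairs one of 0.11 (rho 0.05). Over all 22485 genes tested, these r were -0.09 and 0.36, so the members lay above all genes in the first and below them in the crossed pairs. In the 41 members with at least 10 counts in every sample, which leaves out Csrp3 and Myoz2, the first r was 0.53. In the 9 fast genes r was 0.96 and 0.94, and in the 33 members that are neither slow nor cardiac 0.57 and -0.40. In these 33 rho was 0.61 and 0.13, so the sign in the crossed pairs depended on the measure. The points are genes of the same libraries and are not independent.

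Isoform ratios compare a slow or cardiac gene with its counterpart within 1 sample, so that a factor common to both genes cancels. They are given as log2 ratios of CPM per kb of merged exons, in the order aged replicate 1, aged replicate 2, young replicate 1 and young replicate 2. In all 7 slow over fast pairs the ratio was highest in aged replicate 1, and the other samples were ranked in the 6 pairs without Myl2, which is under the floor of 3 counts in the young samples. In 5 of these 6 young replicate 1 came next, in 4 of 6 aged replicate 2 lay below young replicate 2, and in none of the 6 did the ages separate. The ratios were all under 0, so the fast form was the more abundant in every pair and sample.

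The ratio Tnnt1/Tnnt3 was -8.48, -13.58, -8.92 and -11.55. Tnni1/Tnni2 was -8.73, -12.13, -9.69 and -10.51. Tnnc1/Tnnc2 was -6.41, -9.98, -6.69 and -7.16. Within each troponin subunit the slow form therefore came closest to the fast form in aged replicate 1 and was farthest from it in aged replicate 2. For the light chains, Myl3/Myl1 was -6.72, -9.91, -8.11 and -7.90, and Myl2/Mylpf was -6.37, -14.19, -13.59 and -14.06, the young values of the latter resting on 2 counts of Myl2 each. Mybpc1/Mybpc2 was -2.02, -4.21, -2.82 and -6.40, the pair in which the slow form came closest to the fast one. Myoz2/Myoz1 was -5.15, -9.62, -8.87 and -11.69. Actn2/Actn3, where Actn2 is no slow form, was -4.10, -7.89, -5.44 and -8.84. These last 3 ratios put the samples in 1 order, with replicate 1 of both ages above replicate 2 of both ages.

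Cardiac over skeletal ratios were read for Tnnt2 and Nebl, and in both the aged samples lay below both young ones. Tnnt2/Tnnt3 was -9.93, -10.72, -8.18 and -9.12. Nebl/Neb was -7.58, -8.29, -6.44 and -6.31. In both pairs the ratio was lower in the aged MFP while the CPM was not, since the skeletal partner was higher by more. Relative to the fast members, 87.9% of all genes tested were likewise lower in both aged samples. A lower ratio is thus not particular to these genes.

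**Figure D4:**
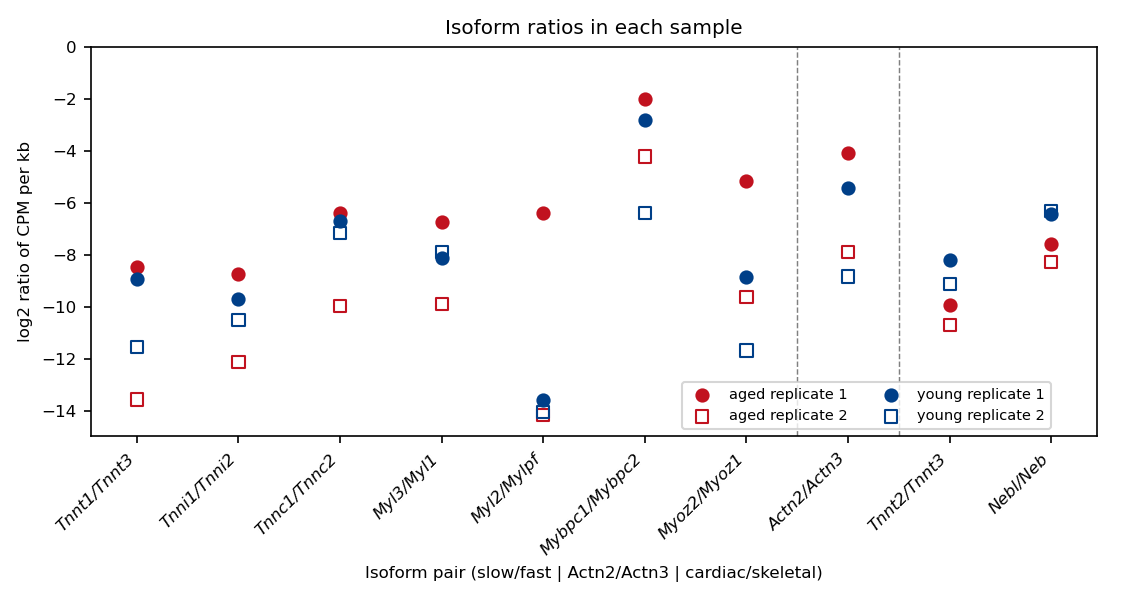
Log2 ratio of CPM per kb for the isoform pairs in each sample, with the 7 slow over fast pairs at the left, Actn2/Actn3 next and the Tnnt2/Tnnt3 and Nebl/Neb pairs at the right. Red marks aged and blue young samples, filled circles replicate 1 and open squares replicate 2; the filled red circle is the highest in every slow over fast pair, and both red marks lie under both blue marks in these last pairs.

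The windows just upstream of the transcription start were read for members that share the common order of samples and for members that do not. RefSeq promoter windows (GRCm38.p6) were found for 31 of the 44 members, 8 of them with more than 1 window, and 250 bases upstream of each start were searched on both strands for 4 motifs. The E-box CANNTG, bound by the myogenic factors of the MyoD family, was in 26 of the 31 members (83.9%) and in 69.3% of 27025 genes with a window. The pattern CTANNNNTAG, a loose MEF2 box with any 4 middle bases, was in 7 of 31 members (22.6%) and in 3.7% of all genes. The middle bases were only A or T, as the MEF2 box has them, in Myoz2, Synpo2l, Ttn and Xirp2. In Flnc, Ldb3 and Smpx they held G or C. The MCAT element CATTCC was in 11 of 31 members (35.5%) and in 14.4% of all genes, and TATAAA was in 5 of 31 (16.1%) and in 14.3%. All 4 fast and all 8 slow genes with a window held an E-box. A match is a description of the letters in these windows and not of binding.

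The 200 bases before the RefSeq start are shown for 7 genes whose window holds none of the exons of that gene in GENCODE M21. They are Ttn (chr2:76982548-76982747, minus strand), Xirp2 (chr2:67445802-67446001, plus) and Acta1 (chr8:123894776-123894975, minus), which share the common order of samples, and Nrap (chr19:56390039-56390238, minus), the member with the smallest edgeR p. Mybpc2 (chr7:44524670-44524869, minus) is the fast and Mybpc1 (chr10:88605153-88605352, minus) the slow gene of 1 isoform pair, and Tnnc1 (chr14:31208112-31208311, plus) is a slow gene. Each is printed 5′ to 3′ on the strand of its gene, with the 4 motifs in capitals on either strand, so that GGAATG is CATTCC on the other strand. In Xirp2 a pair of E-boxes overlap.
Ttn: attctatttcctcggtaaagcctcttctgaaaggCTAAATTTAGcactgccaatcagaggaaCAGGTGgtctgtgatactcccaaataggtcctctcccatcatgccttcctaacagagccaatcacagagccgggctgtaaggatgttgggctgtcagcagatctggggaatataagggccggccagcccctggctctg
Xirp2: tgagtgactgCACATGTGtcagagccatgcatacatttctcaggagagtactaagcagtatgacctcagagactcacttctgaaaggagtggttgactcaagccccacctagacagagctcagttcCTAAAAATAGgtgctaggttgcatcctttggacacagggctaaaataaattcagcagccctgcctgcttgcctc
Acta1: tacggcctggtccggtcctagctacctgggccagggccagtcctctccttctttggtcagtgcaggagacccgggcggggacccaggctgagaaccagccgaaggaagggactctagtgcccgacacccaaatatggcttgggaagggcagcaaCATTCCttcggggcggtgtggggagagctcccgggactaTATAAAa
Nrap: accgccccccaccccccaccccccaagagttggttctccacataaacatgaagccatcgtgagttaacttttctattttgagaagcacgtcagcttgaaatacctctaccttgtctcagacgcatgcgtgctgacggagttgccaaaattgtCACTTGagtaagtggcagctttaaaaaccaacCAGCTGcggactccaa
Mybpc2: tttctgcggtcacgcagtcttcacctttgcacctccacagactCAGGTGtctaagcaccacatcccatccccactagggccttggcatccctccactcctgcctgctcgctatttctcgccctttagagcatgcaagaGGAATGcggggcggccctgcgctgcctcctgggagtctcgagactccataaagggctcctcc
Mybpc1: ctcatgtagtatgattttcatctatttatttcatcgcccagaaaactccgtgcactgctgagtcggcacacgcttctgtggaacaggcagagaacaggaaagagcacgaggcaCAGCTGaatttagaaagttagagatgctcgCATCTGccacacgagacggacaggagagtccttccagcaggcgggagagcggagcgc
Tnnc1: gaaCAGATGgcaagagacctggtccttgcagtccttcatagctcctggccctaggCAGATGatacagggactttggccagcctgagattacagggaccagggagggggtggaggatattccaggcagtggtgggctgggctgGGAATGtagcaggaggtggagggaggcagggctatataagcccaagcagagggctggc

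Ttn and Xirp2 hold a MEF2 box, at 166 and 74 bases before the start. Acta1 holds CATTCC and TATAAA, Mybpc2 an E-box and CATTCC, Mybpc1 a pair of E-boxes, and Tnnc1 a pair of E-boxes and CATTCC. Nrap holds a pair of E-boxes. The fast and the slow gene of the Mybpc pair thus both hold an E-box.

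Other genes of the sarcomere and the myofibre cytoskeleton, which are no members, had values like those of the members. Of 40 such genes, 0 passed edgeR's adjusted test, 38 had a positive log2 fold change with a median of 2.00, and 30 had an edgeR p under 0.05 before adjustment with a higher level in the aged MFP, against 7.24% of all genes tested. Both aged samples lay above both young samples in 34 of the 40, against 23.3% of all genes tested. DESeq2 called 28 higher and 0 lower, against 3.24% and 0.71% of the genes it tested. A further list of 21 genes of myofibre metabolism and calcium handling had a median of 1.94, with 21 positive, 19 with such a p, 0 passing edgeR's adjusted test and 14 called by DESeq2. Its summed level was 11651 and 20318 CPM in the aged and 3355 and 4663 CPM in the young samples.

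The myosin heavy chains, which define fibre types, also differed in which sample was highest. Myh4, the fast IIb chain, stood at 7009 and 16385 CPM in the aged and at 2113 and 3490 CPM in the young samples. Myh1, the IIx chain, stood at 1129 and 193 CPM in the aged and at 149 and 1.99 CPM in the young samples. Myh2, the IIa chain, stood at 578 CPM in aged replicate 1 and at 2.16, 1.15 and 1.06 CPM in aged replicate 2 and the young samples. Myh4 had the order of the fast members, while Myh1, Myh2 and the slow chain Myh7 were highest in aged replicate 1, Myh7 at 24.3 CPM there and at 0.269, 0.634 and 0.0677 CPM in the others. The embryonic chain Myh3 stood at 1.65 and 0.382 CPM in the aged samples, at 0.122 CPM in young replicate 1 and at 0 counts in young replicate 2. The perinatal chain Myh8 had another pattern, with 0.709 and 0.965 CPM in the aged and 0.0732 and 3.10 CPM in the young samples, highest in young replicate 2, and a log2 fold change of -0.92 (SE 1.56).

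Markers of other cells were measured beside the sarcomere genes. Of 10 cardiomyocyte markers, Nppa, Nppb and Tbx20 had 0 counts in every sample, Myl7 had at most 1 count and Myh6 at most 27. Tnni3 stood at 2.62 and 2.04 CPM in the aged and 3.16 and 4.62 CPM in the young samples. Mybpc3 had 2 counts in each aged and 40 and 8 in the young samples. Myl4 stood at 5.89 and 3.69 CPM in the aged and 3.50 and 2.94 CPM in the young samples. Ryr2 and Hcn4 overlapped between ages. Of the 10, 2 were higher and 3 lower in both aged samples, against 23.3% and 22.8% of all genes tested. The list summed to 9.78 to 16.5 CPM in the aged and 13.6 to 14.4 CPM in the young samples, with 0 of 4 tested passing an edgeR p of 0.05. Of 8 satellite cell and myoblast markers, 4 were tested. All 4 had an edgeR p under 0.05 before adjustment with a higher level in the aged MFP, against 7.24% of all genes tested. Mymx was at 0, and the list summed to 3.70 and 7.33 CPM in the aged and 0.549 and 1.08 CPM in the young samples. Smooth muscle markers summed to 842 and 962 CPM in the aged and 459 and 874 CPM in the young samples. Of the 8, 1 had such a p with a higher level, against 7.24% of all genes tested. Adipocyte markers were abundant in all samples, at 11315 and 9387 CPM in the aged and 8560 and 8426 CPM in the young samples. Both aged samples lay above both young samples in this sum and in 7 of the 8 markers, against 23.3% of all genes tested. Of the 8, 2 had an edgeR p under 0.05 before adjustment with a higher level, against 7.24% of all genes tested.

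Among the other lists, brown adipocyte markers summed to 48.1 to 65.0 CPM and mammary epithelial markers to 848 to 2060 CPM over the 4 samples (Wap at 0 in every sample). Endothelial markers summed to 462 to 631 CPM, macrophage markers to 176 to 498 CPM and Schwann cell markers to 179 to 242 CPM. The ages overlapped in each of these sums. Single markers did separate, against 23.3% (higher in both aged samples) and 22.8% (lower) of all genes tested. Of 4 brown adipocyte markers, 3 were higher and 1 (Ucp1) lower in both aged samples. Of 5 macrophage markers 3 were higher and 0 lower, and of 9 mammary epithelial markers 2 were higher and 1 lower. No endothelial or Schwann cell marker separated. Epidermal markers summed to 6.76 and 4.74 CPM in the aged and to 7.90 and 20.5 CPM in the young samples (Flg at 0), without overlap. Most of this sum was Krt15, at 4.91 and 2.90 CPM in the aged and 6.21 and 19.2 CPM in the young samples. Of the 6 markers, 1 (Krt15) was lower and 1 (Krt1) higher in both aged samples, against 22.8% and 23.3% of all genes tested. Fibroblast markers were lower in the aged (1675 and 1261 CPM) than in the young samples (2311 and 2620 CPM) as a sum. Of the 6, however, 4 had an edgeR p under 0.05 before adjustment with a higher level, against 7.24% of all genes tested. The other 2 had such a p with a lower level, against 3.31%. Red cell markers were higher in the aged (212 and 157 CPM) than in the young samples (72.7 and 81.5 CPM). All 5 had an edgeR p under 0.05 before adjustment, against 7.24% of all genes tested. Lymphocyte markers set young replicate 1 apart, at 578 CPM against 3.05 to 57.3 CPM in the other samples. The part of the satellite cell, adipocyte, brown adipocyte, macrophage, red cell, fibroblast and epidermal values in the sarcomere result was not tested. The counting program's strand setting is not given, and 13 members overlap exons of a gene on the opposite strand, among them Ttn, Neb, Myl3 and Mybpc1, so reads of such partners may be in their counts.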

How the data were processed

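Whole MFP RNA of 2 aged and 2 young samples was analysed. Raw counts per gene, without normalization, were deposited by the authors for 55487 genes. The submitters' processing notes name featureCounts, R 3.6.1 and the builds hg38 and GRCm38. Aligner, annotation and strand setting are not given in the sources used here. Samples were grouped by age from the sample titles, and all sample columns were used.

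Genes passing filterByExpr (22485) were scaled by TMM and tested with the quasi-likelihood test of edgeR 4.0.16 (legacy, age as the only term; R 4.3.3, limma 3.58.1) at a Benjamini-Hochberg adjusted p of 0.05, and with DESeq2 1.42.0, named in the study's methods, as an alternative. The standard error is the log2 fold change divided by the square root of F. CPM use TMM-scaled libraries, and log2 CPM a prior count of 2. Reads carry no molecular identifiers, so floors cover counting error only. The code was tested on simulated data.

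Same-numbered samples deviated from their age means with a correlation of -0.48 over 22485 genes, and the labels state no pairing, so no block was used in the comparison reported. The members, isoform classes and gene lists were chosen with earlier results of these data known. Values in every sample are given for the members of the 11 isoform pairs (the ratio of 1 pair is not reported here), the highest and lowest log2 fold change of each role, the 3 most abundant members and the smallest edgeR p, and the heavy chains and marker lists may be named. The named orders of samples and Myom3 were picked with their values in view. Alternatives were other scalings, other filters, muscle or mitochondrially encoded genes left out, a replicate block, DESeq2 and each sample left out in turn, and, chosen after seeing the data, a crossed block and a fit without the legacy method. Coordinates and exon lengths come from GENCODE M21 on GRCm38 (55141 of 55487 identifiers), promoters from RefSeq GRCm38.p6.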

Additional observations from a re-analysis of the deposited data

How the results depend on the processing

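No member was called by edgeR under any alternative, where DESeq2 called 31 members and 28 of the 40 other sarcomere genes higher, from 0 each in the comparison reported. Leaving out each sample in turn left both counts at 0 (0 to 0). Members higher in the aged MFP with an edgeR or DESeq2 p under 0.05 before adjustment numbered 28 to 37 against 33. Over all genes, in either direction and with all samples kept, such p numbered from 1346 with the replicate block to 3120 in DESeq2, against 2371. Non-overlapping members numbered 37 to 40 against 39, and 39 to 43 with a sample left out, where 1 sample separates from 2 more readily. The number of members tested ran from 41 to 44 over these settings. The median log2 fold change was 1.96 to 2.15, and 1.75 to 2.43 with a sample left out. The slow minus fast difference of 0.11 was -2.01 without aged replicate 1, 1.91 without aged replicate 2, 2.60 without young replicate 1 and -0.14 without young replicate 2. Without aged replicate 1 the values of Tnnt1, Tnnc1 and Myl3 turned negative, and with each sample left out they ranged from -1.10 to 3.48, from -0.80 to 1.91 and from -0.58 to 1.91. The cause was not tested.

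With the replicate number as a block, 0 members were called, 35 had a p under 0.05 and the median was 2.08, and the slow minus fast difference was -0.32. It changed no call. With crossed pairs, 0 members were called and 28 had a p under 0.05. The common order held in 30 members under each scaling and filter, and r of the disjoint pairs was 0.51 to 0.69. Neither can be computed with a sample left out. Scaling by total counts alone moved the median of all genes from -0.04 to -0.21. With 2 samples an age, low genes such as Myl2 in the young MFP (2 counts) cannot be told from 0.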
